A study of Mus musculus with 8 samples.

Results

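The immediate early and NF-kB genes described here are 36 named genes, all found in a table of UMI counts for 32285 genes. They were taken as a fixed list of symbols in 8 groups: AP-1 subunits (Fos, Fosb, Jun, Junb, Jund, Atf3), the EGR, IER and DUSP genes (Egr1, Egr3, Ier2, Ier5, Dusp1, Dusp2), NR4A receptors (Nr4a1, Nr4a2, Nr4a3), KLF factors (Klf2, Klf4, Klf6), ZFP36 proteins (Zfp36, Zfp36l1), NF-kB subunits (Rel, Rela, Nfkb1, Nfkb2, Relb), NF-kB inhibitors and feedback genes (Nfkbia, Nfkbiz, Tnfaip3, Bcl3, Birc3), and cytokines with a receptor and a kinase (Ccl3, Ccl4, Tnf, Cxcl2, Tlr4, Pim1). The rule uses gene names alone, but the list was drawn up with earlier results of these data known. The counts come from nuclei of bone marrow cells sorted as Lin-Sca1+ckit+ (LSK), in which blood stem cells and early progenitors are found. The 10x multiome assay reads RNA and open chromatin of the same nucleus. Donors were WT mice and T58A littermates, which carry a point mutation in MYC, per the labels, with 8 samples: 4 RNA and 4 chromatin accessibility samples, 2 per genotype and assay, each replicate from 2 mice of a genotype, whose nuclei were prepared with digitonin. The labels give no age, strain or treatment, and the chromatin samples were not used here.

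The deposited table is named for T58A alone, and its barcodes carry suffixes 1 to 4 that no source used here ties to a genotype or replicate. The 8708 nuclei were therefore treated as 1 sample without replicates. T58A was not compared with WT, and no p-value was made from nuclei. Values are given over all sets, and many also for the 4 barcode sets that the suffixes make, which are not called replicates.

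Immediate early genes are switched on within minutes of a signal, from transcription factors already present, and their RNAs are short-lived. FOS and JUN proteins pair as AP-1, EGR and NR4A proteins are DNA-binding factors, and DUSP and ZFP36 proteins end the response by removing phosphate from kinases or by destabilising RNA. NF-kB subunits are held in the cytoplasm by inhibitors such as the product of Nfkbia, which NF-kB itself induces. In blood cells both systems answer cytokines and microbial products, and immediate early genes are also known to be induced by tissue dissociation and sorting. No unsorted or undissociated sample was at hand here, so the part of handling in any level was not tested.

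Nuclei were placed in classes by marker genes, none of which is a member of the list. A nucleus entered a class when at least 4 of that class's markers were detected and fewer than 4 of every other class's. This gave 1624 HSC-like (Hlf, Mecom, Procr), 855 myeloid progenitor-like (Mpo, Elane), 669 lymphoid progenitor-like (Dntt, Il7r), 187 megakaryocyte-side (Pf4, Itga2b) and 432 erythroid-side nuclei (Car1, Klf1). It also gave 167 nuclei with monocyte, macrophage and dendritic markers, 149 plasma cell-like, 76 B cell-like and 73 neutrophil-like nuclei. The 167 were led by genes of the dendritic type (Zfp366, Ciita, Naaa) and are called dendritic cell-like for short. The megakaryocyte-side nuclei also held a median of 3 HSC markers against 5 of their own. Another 1268 nuclei met several lists and 3164 met none. Of the HSC-like nuclei, 781 had exactly 4 markers, and 959 unplaced nuclei had 3. Classes with under 50 nuclei (late erythroid, T and NK, mast cell and basophil) are not described.

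Barcode sets 1 to 4 held 2999, 721, 2756 and 2232 nuclei. Median depth was 3035, 6764, 3638.5 and 5930.5 UMIs in these sets, with 45723860 UMIs in all. Mitochondrially encoded genes took 24.6%, 9.98%, 24.2% and 9.22% of the UMIs, so sets 1 and 3 resembled each other in this measure, as did sets 2 and 4. Among 8672 distinct barcodes, 36 occurred in more than 1 set. Because of the mitochondrial share, a level here is the number of UMIs of a gene per 1000000 UMIs that are not mitochondrially encoded (CPM).

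Stretches of sequence upstream of the start site are shown for 5 members picked by hand, all of which held a match to a motif below. The 5 did not go the same way in every class. In erythroid-side nuclei Fos, Dusp1, Zfp36 and Rel were called lower and Nfkbia higher. The RefSeq table of GRCm38.p6 held promoter windows for 28 of the 36 members. It held none for Egr1, Egr3, Ier2, Nfkb1, Relb, Nfkbiz, Ccl4 and Tlr4. The 250 bases before the start were searched on both strands for the core of the cAMP response element (TGACGT), the AP-1 site (TGANTCA), the CArG box that serum response factor binds, and the kB site that NF-kB binds. Capitals mark the matches, and overlapping matches run together.
Fos, chr12:85473640-85473889, plus strand: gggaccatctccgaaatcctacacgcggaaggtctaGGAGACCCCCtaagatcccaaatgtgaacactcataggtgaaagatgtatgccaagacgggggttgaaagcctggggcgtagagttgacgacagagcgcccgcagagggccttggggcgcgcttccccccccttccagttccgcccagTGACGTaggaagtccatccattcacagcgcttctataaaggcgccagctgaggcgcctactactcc
Dusp1, chr17:26508473-26508722, minus strand: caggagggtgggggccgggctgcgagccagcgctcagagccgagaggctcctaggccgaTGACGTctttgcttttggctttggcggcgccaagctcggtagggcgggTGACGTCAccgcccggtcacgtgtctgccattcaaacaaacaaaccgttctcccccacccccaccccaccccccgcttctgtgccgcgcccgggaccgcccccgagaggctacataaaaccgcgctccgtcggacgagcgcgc
Zfp36, chr7:28379229-28379478, minus strand: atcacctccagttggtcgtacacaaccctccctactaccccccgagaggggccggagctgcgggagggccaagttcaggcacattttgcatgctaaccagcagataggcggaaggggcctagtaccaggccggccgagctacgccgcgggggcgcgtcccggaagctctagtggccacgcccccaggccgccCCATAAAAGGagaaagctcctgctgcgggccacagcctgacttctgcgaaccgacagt
Rel, chr11:23770970-23771219, minus strand: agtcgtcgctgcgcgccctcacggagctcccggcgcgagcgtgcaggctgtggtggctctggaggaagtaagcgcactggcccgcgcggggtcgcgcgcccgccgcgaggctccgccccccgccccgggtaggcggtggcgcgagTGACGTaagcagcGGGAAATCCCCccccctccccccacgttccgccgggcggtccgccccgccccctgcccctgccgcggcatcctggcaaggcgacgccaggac
Nfkbia, chr12:55492648-55492897, minus strand: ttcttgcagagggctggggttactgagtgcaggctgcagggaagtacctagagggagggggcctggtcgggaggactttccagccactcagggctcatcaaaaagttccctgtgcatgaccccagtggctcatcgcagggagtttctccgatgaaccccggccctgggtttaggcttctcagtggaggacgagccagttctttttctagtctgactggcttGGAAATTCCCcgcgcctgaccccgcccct

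Fos held TGACGT 66 bases and a kB site 214 bases before the start, and Dusp1 held 3 matches to TGACGT, the pair at 143 and 141 bases being the same palindrome read on both strands. Zfp36 held a CArG box at 58 bases, Rel held TGACGT at 105 bases beside overlapping kB sites at 92 and 91 bases, and Nfkbia held a kB site at 29 bases. Over the 28 members, TGACGT was in 6 (Atf3, Dusp1, Fos, Nr4a3, Rel, Tnfaip3), or 21.4%, against 7.29% of 27025 genes in the table. The kB site was in 7 (Cxcl2, Fos, Fosb, Nfkb2, Nfkbia, Rel, Tnfaip3), or 25%, against 4.46% of genes. The AP-1 site was in 3 members, or 10.7% against 7.82%, and the CArG box in 1, or 3.57% against 1.62%. These matches describe letters in a window, with no test, and binding was not measured.

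The classes differed most in the erythroid-side nuclei, where most members were lower than in HSC-like nuclei, and in the dendritic cell-like and plasma cell-like nuclei, where more members were higher than lower. The plasma cell-like count turned without barcode set 3, as given with it. Classes were set against the HSC-like nuclei by the ratio of UMI rates within barcode sets, combined over sets (Mantel-Haenszel). A gene with at least 50 counts over both classes counted as measured. It was called lower or higher at 1.5-fold or more with the same direction in all 4 sets (sets 1 and 3 for plasma cell-like nuclei, which were nearly absent from the others). This is a rule of size and not a test. Set 2 held 8 erythroid-side, 13 dendritic cell-like and 17 megakaryocyte-side nuclei, so its values in these classes rest on few nuclei. Ranges in parentheses after a level or ratio are 95% intervals that cover counting error only. Because ratios are formed within sets, they need not equal the quotient of 2 pooled levels. In bulk sums over nuclei, fewer expressing nuclei and less RNA per nucleus cannot be told apart.

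In erythroid-side nuclei 27 of 34 measured members were lower, where 25.7% of all measured genes were, and 3 were higher, where 20.0% of all genes were. The median log2 ratio of the members was -1.92, against 0.05 over all genes. In myeloid progenitor-like nuclei 21 of 35 were lower and 0 higher (17.2% and 8.47% of all genes), with a median of -0.77 against -0.06. In megakaryocyte-side nuclei 14 of 33 were lower and 1 higher (14.1% and 5.75%), with a median of -0.88 against -0.03. Lymphoid progenitor-like nuclei were split, with 9 of 35 lower and 6 higher (11.3% and 5.66%) and a median of -0.34 against -0.03. In dendritic cell-like nuclei 6 of 34 were lower and 13 higher (25.1% and 10.4%), with a median of 0.46 against -0.27. The dendritic cell-like median was 0.17 without set 4. In the 40 nuclei without a UMI of a G2/M gene it was -0.018 against -0.24 over all genes. Of 18 members measured there, 4 were lower and 5 higher, where 27.8% of all genes were lower. In plasma cell-like nuclei 7 of 30 were lower and 13 higher (53.0% and 6.81%), with a median of 0.31 against -0.69. Without set 3, 9 of 20 were lower and 6 higher, where 63.5% of all genes were lower. The median was then -0.12 against -0.90 over all genes.

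Over the 4 progenitor classes (myeloid, lymphoid, megakaryocyte and erythroid), Nr4a1 and Nr4a2 were the 2 members called lower in every class. Another 15 members were lower in 3 classes and 7 were lower in none. The 4 comparisons share the HSC-like nuclei, so these counts are not independent. The share of all genes lower in as many classes is not given, so the counts are not read as particular to the members. In the nuclei used, RNA of 25 G2/M genes also differed: it was higher for 19 of 25 genes in myeloid, 9 of 25 in lymphoid, 14 of 24 in megakaryocyte-side and 23 of 25 in erythroid-side nuclei, and lower for 21 of 24 in plasma cell-like nuclei. In nuclei whose share of G2/M UMIs was at or below the HSC-like median, 12 of 30 members were lower and 0 higher in myeloid (127 nuclei), 11 of 31 lower and 4 higher in lymphoid (224 nuclei), and 16 of 28 lower and 0 higher in megakaryocyte-side nuclei (42 nuclei). The same limit, added after the data were seen, left 13 erythroid-side nuclei, with 19 of 20 members lower and 1 higher. Under this limit 14.1%, 11.2%, 17.6% and 36.9% of all measured genes were lower in these 4 classes. Of 8 genes for RNA quality and stress (heat shock genes, Malat1 and Neat1), 3 of 8 measured were higher in myeloid, 1 of 7 in lymphoid, 0 of 6 in megakaryocyte-side, 4 of 7 in erythroid-side, 1 of 7 in dendritic cell-like and 2 of 6 in plasma cell-like nuclei. Malat1 was lower in myeloid, Neat1 in lymphoid and both in erythroid-side nuclei, as were most members called there. Hspa1b was 45.6-fold higher in dendritic cell-like and Hsph1 11.3-fold higher in plasma cell-like nuclei. The part of cycling and of stress in the ratios of the members was not tested beyond these values.

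**Figure D1:**
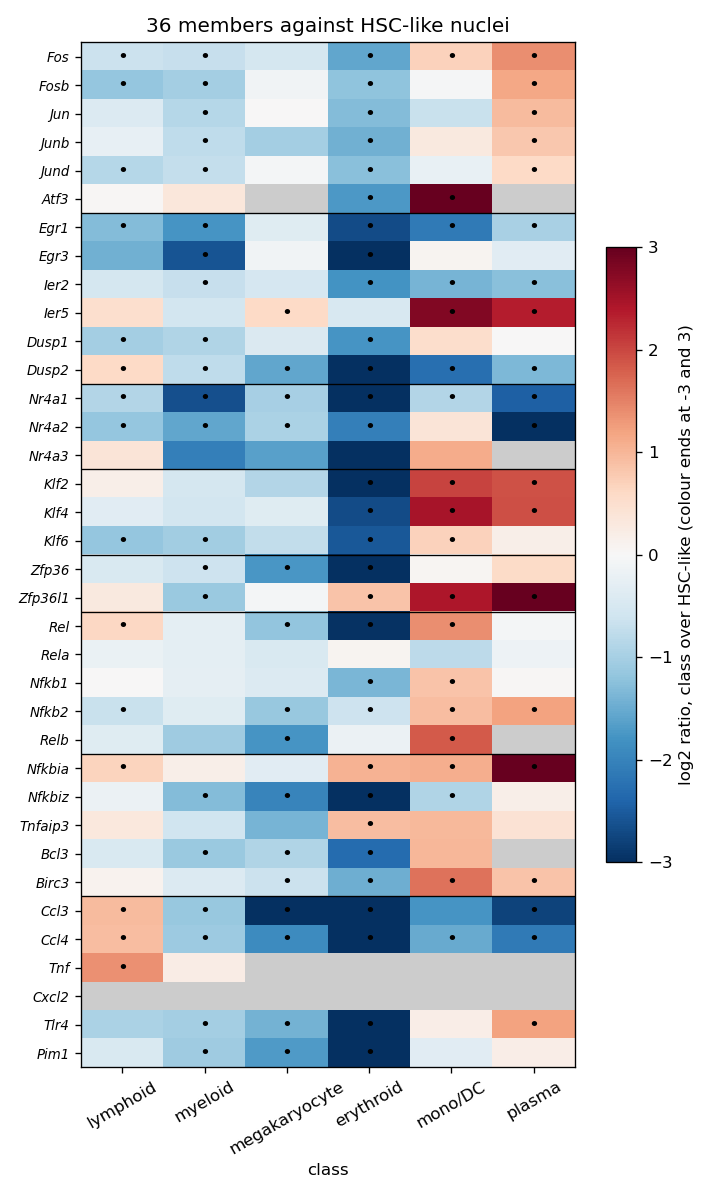
Log2 ratio of each of the 36 members in 6 classes (columns) against HSC-like nuclei, members in rows by group with lines between groups. Blue is lower and red is higher than in HSC-like nuclei, grey was not measured, colours end at -3 and 3, and a dot marks a called member. The erythroid column is called lower for 27 of 34 measured members, and the columns of dendritic cell-like (mono/DC) and plasma cell-like nuclei are each called higher for 13.

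The AP-1 genes were lower in erythroid-side nuclei for 6 of 6 members and in myeloid progenitor-like nuclei for 5 of 6, and were higher in plasma cell-like nuclei for 5 of 5 measured. Of all genes 25.7% and 17.2% were lower in the first 2 classes and 6.81% higher in the last. Fos, which encodes the labile partner of JUN, stood at 245, 249.7, 328 and 364 CPM in sets 1 to 4 of the HSC-like nuclei and at 58.1, 82.1, 152 and 99.5 CPM in the erythroid-side nuclei. Every erythroid-side value was below every HSC-like value, and the ratio was 2.94-fold (2.59 to 3.33) lower. In plasma cell-like nuclei Fos was at 693 and 846 CPM in sets 1 and 3, above each HSC-like value, and 2.63-fold (2.32 to 2.99) higher. In dendritic cell-like nuclei it was at 405, 311, 422 and 706 CPM, overlapping the HSC-like values across sets but above them within each set, and 1.61-fold (1.42 to 1.83) higher. That call rested on set 4, without which the log2 ratio was 0.43. In myeloid and lymphoid progenitor-like nuclei Fos was 1.61-fold (1.49 to 1.74) and 1.57-fold (1.43 to 1.72) lower. Both fell under 1.5-fold without set 4, at log2 ratios of -0.53 and -0.49, and the lymphoid one also without set 3, at -0.54.

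Fosb, a second FOS family gene, had the most counts of the list, 15600 over all nuclei. Its HSC-like levels were 408, 281, 848 and 454 CPM in sets 1 to 4, so that set 3 stood well above the others. In lymphoid progenitor-like nuclei it was at 251, 162, 283 and 198 CPM, 2.22-fold (2.04 to 2.42) lower, and in myeloid progenitor-like nuclei 2.01-fold (1.88 to 2.15) lower. Megakaryocyte-side nuclei held it at 489, 195, 678 and 464 CPM, a ratio of 0.925-fold (0.833 to 1.03). Plasma cell-like nuclei held 1179 and 1790.4 CPM, 2.23-fold (2.04 to 2.43) higher. Both plasma values were above all 4 HSC-like values.

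Jun, the main JUN family gene, was at 432, 468, 346 and 504 CPM in HSC-like nuclei and did not share the high value of set 3. It was 1.81-fold (1.69 to 1.94) lower in myeloid and 2.47-fold (2.24 to 2.73) lower in erythroid-side nuclei, where each set was below the HSC-like range. In megakaryocyte-side nuclei the ratio was 1.0-fold (0.893 to 1.12). Junb, which often opposes JUN, was at 118, 121, 149 and 143 CPM in HSC-like and 20.9, 41, 60.8 and 66.4 CPM in erythroid-side nuclei, 2.74-fold (2.28 to 3.29) lower and without overlap. In megakaryocyte-side nuclei Junb was 2.03-fold (1.53 to 2.68) lower but was not called, since 1 set went the other way. In plasma cell-like nuclei Jun was 1.94-fold, Junb 1.74-fold and Jund 1.51-fold higher. Without set 3 the plasma ratios of Jun and Jund fell to log2 values of 0.14 and 0.19.

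Jund, a JUN family gene that is often transcribed without stimulation, was at 329, 121, 353 and 146 CPM in HSC-like nuclei. Its levels were high in sets 1 and 3 and low in sets 2 and 4 in the HSC-like nuclei, the 4 progenitor classes and the dendritic cell-like nuclei, the same split as the mitochondrial share, whose part was not tested. Within sets it was 1.65-fold (1.5 to 1.81) lower in myeloid, 1.8-fold (1.61 to 2.02) lower in lymphoid and 2.38-fold (2.11 to 2.69) lower in erythroid-side nuclei. Atf3, a stress-induced factor of the same dimer family, was scarce in HSC-like nuclei, with 45 counts or 6.63 CPM (4.83 to 8.87). In dendritic cell-like nuclei it was at 30, 229, 82.2 and 94.5 CPM, above every HSC-like value, and 13.8-fold (9.23 to 20.6) higher. It was the member with the highest ratio in that class.

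**Figure D2:**
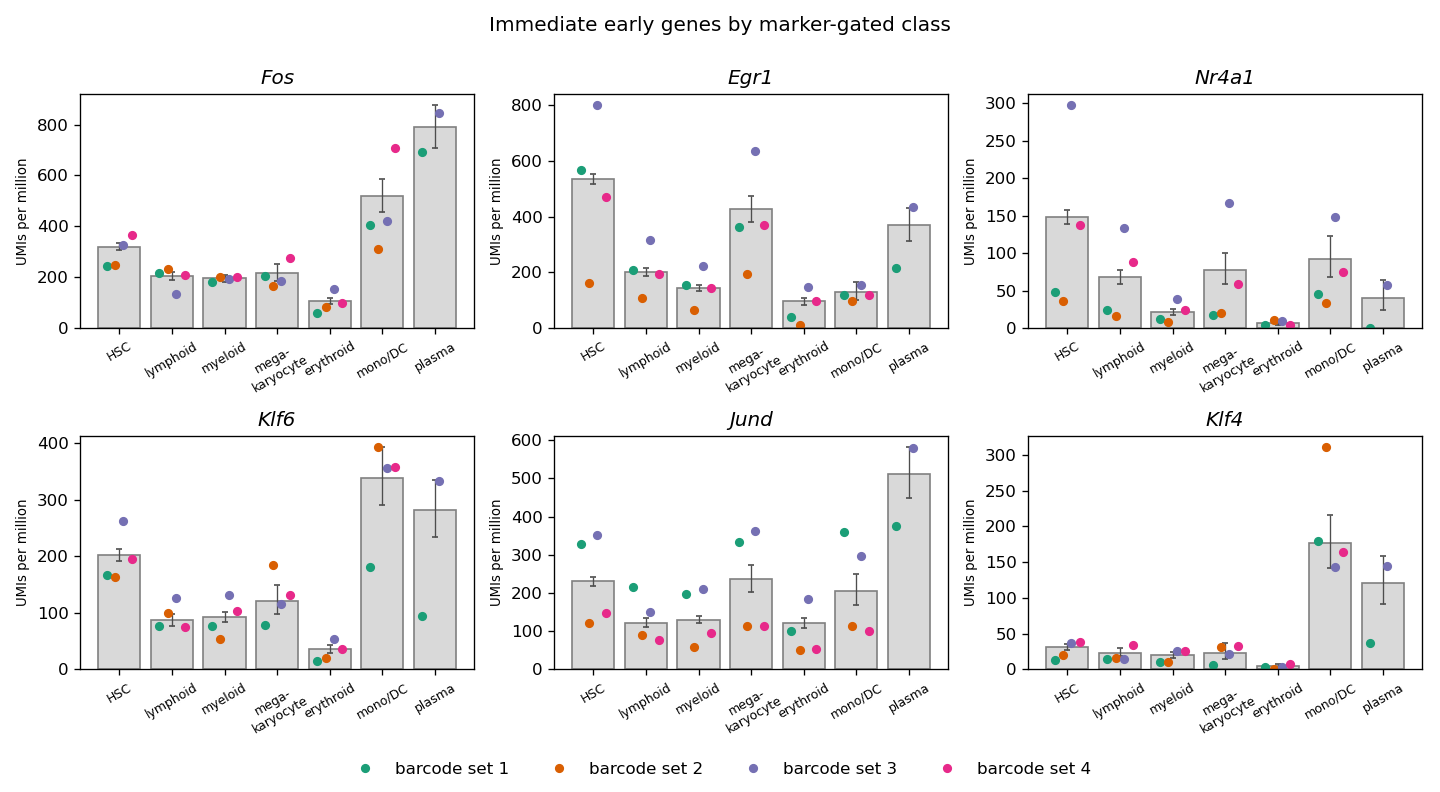
Levels of Fos, Egr1, Nr4a1, Klf6, Jund and Klf4 in 7 classes, in CPM, on linear axes from 0. Bars are levels over all nuclei of a class, error bars are exact Poisson 95% intervals for counting error only, and points are barcode sets with at least 8 nuclei. Fos and Jund are highest in plasma cell-like nuclei, Egr1 and Nr4a1 in HSC-like nuclei, and Klf4 in dendritic cell-like (mono/DC) nuclei.

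Egr1, Egr3, Ier2 and Dusp2 did not follow AP-1 in every class. Egr1 encodes a zinc finger factor known to restrain cycling of stem cells. It was at 569, 163, 799.6 and 471 CPM in HSC-like nuclei and 155, 66.2, 221 and 145 CPM in myeloid progenitor-like nuclei, 3.39-fold (3.12 to 3.68) lower, with 1 myeloid set above the lowest HSC-like set. It was 2.46-fold (2.26 to 2.68) lower in lymphoid, 6.38-fold (5.63 to 7.24) lower in erythroid-side, 4.36-fold (3.42 to 5.56) lower in dendritic cell-like and 1.96-fold (1.67 to 2.31) lower in plasma cell-like nuclei. In the last 2 classes Fos was called higher. In plasma cell-like nuclei 53.0% of all genes were lower, with a median log2 ratio of -0.69. The median of the 6 EGR, IER and DUSP genes there was -0.66, near that of all genes. In megakaryocyte-side nuclei Egr1 was at 364, 195, 635 and 369 CPM, 1.3-fold (1.16 to 1.45) lower and not called.

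Egr3, a related factor, was at 13.1, 3.73, 89 and 31.1 CPM in HSC-like nuclei, with the widest range over sets of any member plotted. It was 6.06-fold (4.03 to 9.1) lower in myeloid and 17.1-fold (8.22 to 35.5) lower in erythroid-side nuclei, where it had 8 counts. Its ratio in lymphoid progenitor-like nuclei was 2.7-fold (1.9 to 3.83) lower but not in every set. Ier2, a small nuclear immediate early protein, was at 112, 123, 144 and 125 CPM in HSC-like nuclei and at 16.3, 30.8, 44.2 and 49.8 CPM in erythroid-side nuclei, 3.45-fold (2.8 to 4.25) lower without overlap. It was also 2.65-fold (1.78 to 3.94) lower in dendritic cell-like and 2.39-fold (1.58 to 3.61) lower in plasma cell-like nuclei. Ier5, its relative, ran the other way, 6.86-fold (4.96 to 9.49) higher in dendritic cell-like and 5.1-fold (2.96 to 8.79) higher in plasma cell-like nuclei. In megakaryocyte-side nuclei Ier5 was called higher at 1.51-fold (0.916 to 2.49) on 18 counts, with an interval that includes 1, and fell under 1.5-fold without set 2 or set 3, at log2 ratios of 0.55 and 0.55.

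Dusp1 and Dusp2 encode phosphatases of MAP kinases. Dusp1 was at 115, 148, 109.6 and 135 CPM in HSC-like and 63.5, 54, 46.4 and 71.7 CPM in lymphoid progenitor-like nuclei, 2.04-fold (1.74 to 2.39) lower, with no overlap. It was 1.86-fold (1.64 to 2.11) lower in myeloid and 3.43-fold (2.76 to 4.26) lower in erythroid-side nuclei. Dusp2 was at 58.5, 109, 103 and 116 CPM in HSC-like nuclei and at 88.9, 185, 158 and 167 CPM in lymphoid progenitor-like nuclei, 1.51-fold (1.34 to 1.7) higher, with overlap across sets and a log2 ratio of 0.56 without set 2. It was lower in the other classes, by 1.7-fold (1.48 to 1.96) in myeloid, 2.92-fold (1.98 to 4.32) in megakaryocyte-side, 4.78-fold (2.64 to 8.68) in dendritic cell-like, 2.54-fold (1.51 to 4.28) in plasma cell-like and 12.6-fold (7.98 to 19.8) in erythroid-side nuclei. The 2 phosphatase genes therefore differed in opposite directions in the lymphoid nuclei.

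The NR4A genes encode orphan nuclear receptors that are induced like immediate early genes and are known for restraining stem cell proliferation. Nr4a1 was at 48.5, 36, 297 and 138 CPM in sets 1 to 4 of the HSC-like nuclei and at 11.8, 7.9, 38.9 and 23.7 CPM in the myeloid progenitor-like nuclei. Within each set the myeloid value was lower, by 6.26-fold (5.08 to 7.71), though its set 3 value lay above the lowest HSC-like value. In lymphoid nuclei Nr4a1 was at 24, 15.4, 133 and 87.6 CPM, 1.85-fold (1.59 to 2.15) lower, and in megakaryocyte-side nuclei 1.99-fold (1.53 to 2.58) lower. In erythroid-side nuclei 17 counts gave 3.48, 10.3, 9.21 and 4.52 CPM, all below the HSC-like range, a ratio 26.6-fold (16.5 to 43.1) lower. Plasma cell-like nuclei had 0 and 57.7 CPM in sets 1 and 3, 5.47-fold (3.41 to 8.75) lower, and dendritic cell-like nuclei were 1.85-fold (1.38 to 2.48) lower.

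Nr4a2 was at 47.7, 62.1, 216 and 109.7 CPM in HSC-like nuclei and was lower by 2.96-fold (2.51 to 3.5) in myeloid, 2.22-fold (1.86 to 2.66) in lymphoid, 1.93-fold (1.45 to 2.57) in megakaryocyte-side and 4.17-fold (3.33 to 5.23) in erythroid-side nuclei. Plasma cell-like nuclei had 7 counts, 10.4-fold (4.92 to 22) lower. In dendritic cell-like nuclei the ratio was 1.31-fold (1.06 to 1.63) and was not called. Nr4a3 was scarce, at 7.95 CPM (5.97 to 10.4) in HSC-like nuclei with 54 counts, and was called in no class. Its ratio was 4.11-fold (1.93 to 8.77) lower in myeloid progenitor-like nuclei on 8 counts.

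Klf2 and Klf4, zinc finger factors known from quiescent lymphocytes, endothelium and monocytes, were higher in dendritic cell-like and plasma cell-like nuclei and lower in erythroid-side nuclei. Klf2 was at 19.2, 24.8, 71.9 and 31.8 CPM in HSC-like nuclei and 105, 197, 214 and 159 CPM in dendritic cell-like nuclei, 4.06-fold (3.2 to 5.15) higher with no overlap. Klf4 was at 13.1, 19.9, 36.5 and 38.1 CPM and 180.04, 311, 143 and 164 CPM, 5.51-fold (4.3 to 7.05) higher with no overlap. The plasma cell-like nuclei had them 3.77-fold and 3.82-fold higher. In erythroid-side nuclei Klf2 had 8 counts and was 15.2-fold (7.38 to 31.2) lower, and Klf4 had 12 counts and was 6.4-fold (3.57 to 11.5) lower. Klf6, a more widely expressed member of the family, was at 167, 163, 262 and 195 CPM in HSC-like and 13.9, 20.5, 54.4 and 36.2 CPM in erythroid-side nuclei, 5.87-fold (4.77 to 7.23) lower with no overlap. It was also 2.07-fold (1.86 to 2.31) lower in myeloid and 2.23-fold (1.95 to 2.54) lower in lymphoid nuclei, and 1.61-fold (1.37 to 1.88) higher in dendritic cell-like nuclei. That last ratio was 0.56 on the log2 scale without set 4.

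Zfp36 and Zfp36l1 encode RNA-binding proteins that promote decay of AU-rich messages, and in erythroid-side nuclei they differed in opposite directions. Zfp36 was at 121, 135, 170.3 and 149 CPM in HSC-like nuclei and 10.4, 0, 24 and 21.1 CPM in erythroid-side nuclei, 8.18-fold (6.12 to 10.9) lower with no overlap. It was 3.34-fold (2.38 to 4.7) lower in megakaryocyte-side nuclei and 1.54-fold (1.37 to 1.72) lower in myeloid nuclei, the latter at a log2 ratio of -0.52 without set 4. Zfp36l1 was at 33.1, 53.4, 64.2 and 59.2 CPM in HSC-like nuclei and 106, 113, 92.1 and 89 CPM in erythroid-side nuclei, 1.8-fold (1.53 to 2.13) higher with no overlap. It was 5.42-fold (4.49 to 6.53) higher in dendritic cell-like nuclei and 8.49-fold (6.87 to 10.5) higher in plasma cell-like nuclei, at 496 and 464 CPM in sets 1 and 3. In myeloid nuclei Zfp36l1 was lower, by 2.15-fold (1.75 to 2.65).

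Of the NF-kB subunit genes, 0 of 5 were called in myeloid progenitor-like nuclei, with a median log2 ratio of -0.30, against 15 of 20 AP-1, EGR, IER, DUSP, NR4A, KLF and ZFP36 genes lower with a median of -0.81. In lymphoid nuclei 1 subunit gene was lower and 1 higher, against 8 of those 20 genes lower and 1 higher. Of all genes 17.2% were lower and 8.47% higher in myeloid nuclei, and 11.3% and 5.66% in lymphoid nuclei. With 5 genes, the subunit counts are not read as particular to the subunits. The difference between the groups was not tested. Nfkb1, which encodes the precursor of p50, was the steadiest member over sets, at 375, 345, 318 and 367 CPM in HSC-like nuclei. Its ratio was 1.2-fold (1.12 to 1.28) lower in myeloid nuclei and 1.0-fold (0.933 to 1.08) in lymphoid nuclei. It was called lower in erythroid-side nuclei, at 107, 144, 138 and 157 CPM and 2.59-fold (2.32 to 2.9) lower, and higher in dendritic cell-like nuclei, by 1.82-fold (1.62 to 2.04), with no overlap in either case.

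Rel encodes the lymphoid subunit c-Rel. It was at 85.4, 137, 131 and 197 CPM in HSC-like, 104, 268, 224 and 292 CPM in lymphoid and 210.05, 180.3, 329 and 597 CPM in dendritic cell-like nuclei. Its ratios were 1.55-fold (1.41 to 1.71) and 2.65-fold (2.28 to 3.08) higher, and the lymphoid one was 0.57 on the log2 scale without set 2. In erythroid-side nuclei Rel was at 5.81, 10.3, 21.2 and 25.6 CPM, 7.84-fold (5.8 to 10.6) lower and below every HSC-like value. In megakaryocyte-side nuclei it was 2.28-fold (1.71 to 3.03) lower. Rel was low in set 1 of each of these classes except the dendritic cell-like nuclei, where set 2 was lowest.

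Rela, which encodes the widely expressed p65 subunit, was called in no class, with ratios from 0.578 in dendritic cell-like to 1.06 in erythroid-side nuclei. Nfkb2, the precursor of p52 in the non-canonical branch, was at 24.9 CPM (21.3 to 28.9) in HSC-like nuclei. It was higher by 1.91-fold (1.26 to 2.89) in dendritic cell-like and 2.32-fold (1.56 to 3.45) in plasma cell-like nuclei. It was lower by 1.6-fold (1.15 to 2.23) in lymphoid, 2.21-fold (1.13 to 4.33) in megakaryocyte-side and 1.55-fold (1.12 to 2.14) in erythroid-side nuclei, the last at a log2 ratio of -0.35 without set 3. Relb, its partner, was 3.57-fold (2.27 to 5.6) higher in dendritic cell-like nuclei, where each set was above that set's HSC-like value, and 3.39-fold (1.06 to 10.8) lower in megakaryocyte-side nuclei on 3 counts. Dendritic cells are known for RelB.

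**Figure D3:**
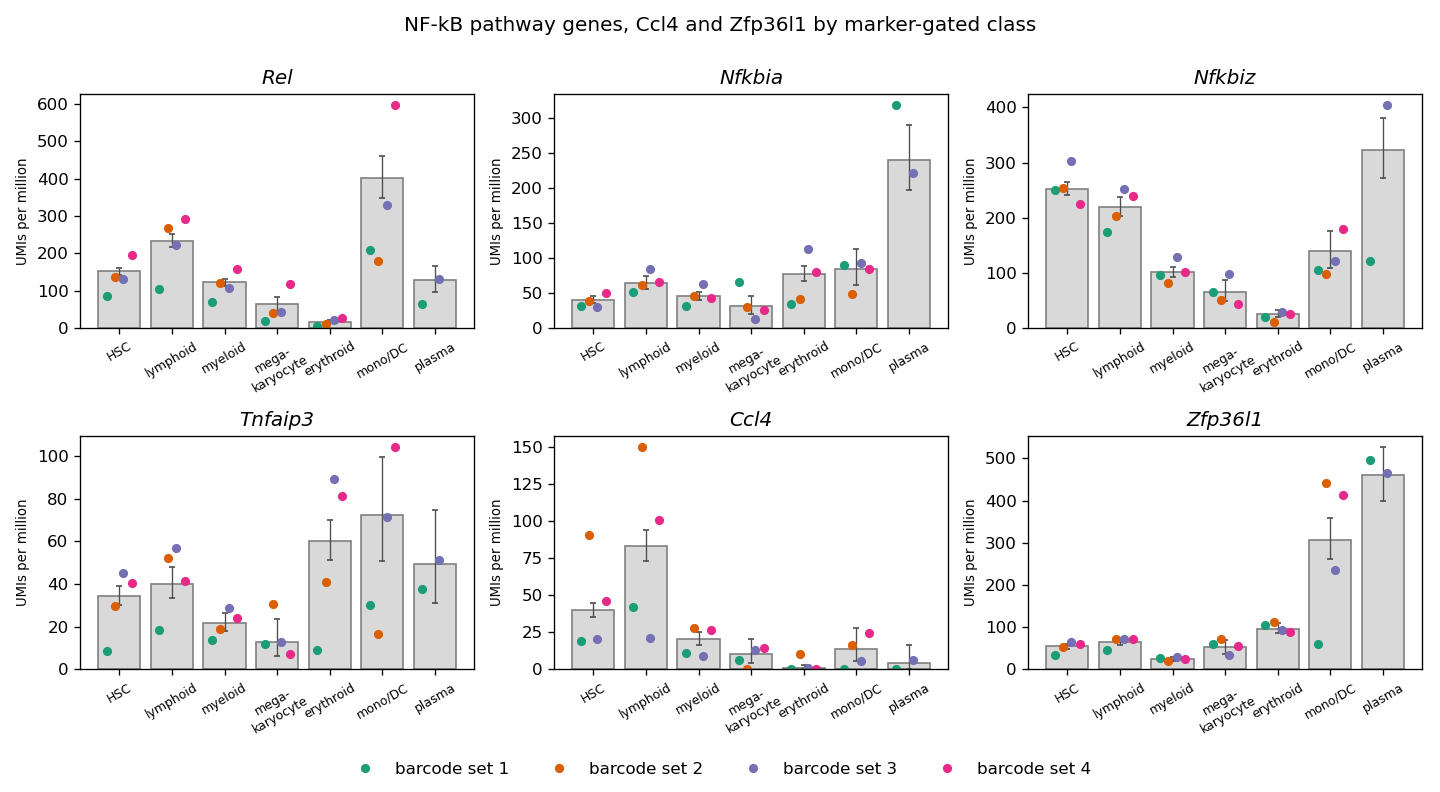
Levels of Rel, Nfkbia, Nfkbiz, Tnfaip3, Ccl4 and Zfp36l1 in 7 classes, in CPM, on linear axes from 0. Bars are levels over all nuclei of a class, error bars are exact Poisson 95% intervals for counting error only, and points are barcode sets with at least 8 nuclei. Rel is highest in dendritic cell-like (mono/DC) nuclei, Nfkbia and Zfp36l1 in plasma cell-like nuclei and Ccl4 in lymphoid nuclei, while Nfkbiz and Ccl4 are lowest in erythroid nuclei.

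Of the inhibitor and feedback genes 2 of 5 were higher and 3 of 5 lower in erythroid-side nuclei, where 20.0% and 25.7% of all genes were. Calls in both directions were thus common in this class, and the split is not read as particular to these genes. Nfkbia, which encodes IkB-alpha, was at 31.5, 38.5, 30.6 and 50.5 CPM in HSC-like nuclei and 33.7, 41, 112 and 79.9 CPM in erythroid-side nuclei. The erythroid-side value was higher within each set, 2.06-fold (1.7 to 2.5) over the sets, though the ranges overlapped. The difference was small in sets 1 and 2, set 2 held 8 erythroid-side nuclei, and the log2 ratio without set 3 was 0.45. Tnfaip3, which encodes the ubiquitin-editing enzyme A20, was at 8.46, 29.8, 45.4 and 40.5 and 9.29, 41, 89.4 and 81.4 CPM in the same classes, 1.89-fold (1.54 to 2.33) higher with overlap across sets. With all UMIs as the denominator, which lowers the erythroid median of all genes from 0.05 to -0.14, Nfkbia, Tnfaip3 and Zfp36l1 kept log2 ratios of 0.85, 0.74 and 0.66, but 1 of the 3 was still called. Heat shock genes were also higher in erythroid-side nuclei, Hspa1b by 15.9-fold and Hsph1 by 5.61-fold, and their part was not tested.

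Nfkbia was also 1.58-fold (1.32 to 1.9) higher in lymphoid nuclei, at a log2 ratio of 0.49 without set 3, and 2.12-fold (1.53 to 2.93) higher in dendritic cell-like nuclei. In plasma cell-like nuclei it was at 318 and 221 CPM in sets 1 and 3, above all HSC-like values and 8.01-fold (6.03 to 10.6) higher. Nfkbiz, which encodes the nuclear inhibitor IkB-zeta, went the other way. It was at 250.02, 253, 303 and 224 CPM in HSC-like and 20.9, 10.3, 29.5 and 25.6 CPM in erythroid-side nuclei, 10.5-fold (8.21 to 13.4) lower with no overlap. It was 2.45-fold (2.21 to 2.71) lower in myeloid, 3.91-fold (2.96 to 5.18) lower in megakaryocyte-side and 1.86-fold (1.47 to 2.36) lower in dendritic cell-like nuclei, where Nfkbia was called higher. Lymphoid nuclei held it at 174, 203, 251 and 239 CPM, a ratio of 0.892-fold (0.815 to 0.975).

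Birc3, an inhibitor of apoptosis and NF-kB target, was at 61.8 CPM (56.1 to 68) in HSC-like nuclei. It was 3.11-fold (2.5 to 3.87) higher in dendritic cell-like and 1.82-fold (1.29 to 2.55) higher in plasma cell-like nuclei. It was 2.78-fold (2.09 to 3.7) lower in erythroid-side and 1.57-fold (1.08 to 2.27) lower in megakaryocyte-side nuclei, the latter at -0.53 on the log2 scale without set 3. Bcl3, an atypical nuclear IkB protein, was scarce, with 48 counts in HSC-like nuclei. It was called lower by 2.16-fold (1.25 to 3.74) in myeloid nuclei and by 4.98-fold (1.65 to 15) on 4 counts in erythroid-side nuclei. In megakaryocyte-side nuclei it was 1.87-fold (0.582 to 6.01) lower on 3 counts, at a log2 ratio of -0.43 without set 2.

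The chemokine genes Ccl3 and Ccl4 were highest in lymphoid progenitor-like nuclei. Both are known NF-kB targets. Ccl3 was at 19.2, 42.2, 14.7 and 35.1 CPM in HSC-like and 38.1, 75.2, 48.5 and 60.8 CPM in lymphoid nuclei, 1.92-fold (1.56 to 2.36) higher. Ccl4 was at 19.2, 90.7, 20.6 and 46.2 and 42.3, 150.4, 21.1 and 101 CPM, 1.91-fold (1.61 to 2.27) higher. Lymphoid values overlapped the HSC-like ones across sets for both genes and were above them within each set, and both genes were highest in set 2, where the heat shock genes Hspa1a and Hspa1b were also highest. In myeloid nuclei they were 2.22-fold (1.66 to 2.95) and 2.14-fold (1.7 to 2.69) lower. Erythroid-side nuclei had 1 count of Ccl3 and 2 of Ccl4, giving ratios 69.6-fold (8.13 to 595) and 37.7-fold (9.46 to 149.9) lower, and megakaryocyte-side nuclei had 1 and 8 counts.

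Tnf, the gene of the cytokine TNF, was measured in lymphoid and myeloid nuclei alone. It was at 5.39, 4.97, 4.12 and 5.02 CPM in HSC-like and 15.5, 11.6, 21.1 and 8.69 CPM in lymphoid nuclei, 2.6-fold (1.64 to 4.12) higher with no overlap, on 39 lymphoid counts. The myeloid ratio was 1.17-fold (0.701 to 1.95). Cxcl2, a neutrophil chemokine gene, had 43 counts in all and was measured in no class. Of its 17 HSC-like counts most lay in set 2, at 16.2 CPM. Tlr4, the receptor for bacterial lipopolysaccharide, was at 13.7 CPM (11.1 to 16.8) in HSC-like nuclei. It was 2.04-fold (1.38 to 3.01) lower in myeloid, 2.69-fold (0.986 to 7.36) lower in megakaryocyte-side (4 counts) and 8.89-fold (3.18 to 24.9) lower in erythroid-side nuclei (4 counts), and 2.3-fold (1.19 to 4.41) higher in plasma cell-like nuclei.

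Pim1, a kinase gene induced by cytokines through STAT factors as well as NF-kB, was at 472, 445, 469.6 and 296 CPM in HSC-like nuclei. In erythroid-side nuclei it was at 48.8, 30.8, 48.8 and 31.7 CPM, far below every HSC-like value and 9.74-fold (8.09 to 11.7) lower. Megakaryocyte-side nuclei held 167, 61.5, 153 and 98.7 CPM, 3.23-fold (2.64 to 3.96) lower, and myeloid nuclei 261, 166, 209 and 149.8 CPM, 2.1-fold (1.94 to 2.26) lower, both without overlap. In lymphoid, dendritic cell-like and plasma cell-like nuclei its ratios were 0.728, 0.784 and 1.15 and were not called.

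Calls in the megakaryocyte-side nuclei differed between the groups of genes. In them 0 of 5 measured AP-1 genes were called, with a median log2 ratio of -0.11. In this class 14.1% of all genes were lower. Lower were 2 of 3 NR4A genes, 3 of 5 NF-kB subunits, 3 of 5 inhibitor and feedback genes and 4 of 4 measured genes of the last group. Several of these calls rest on few megakaryocyte-side counts: Ccl3 on 1, Relb and Bcl3 on 3 each, Tlr4 on 4, Ccl4 on 8 and Nfkb2 on 9. The intervals of Bcl3 and Tlr4 included 1. With at least 200 counts 9 of 26 members were lower, where 12.6% of all genes were. In plasma cell-like nuclei 5 of 5 measured AP-1 genes were higher and 2 of 2 measured NR4A genes lower, where 6.81% and 53.0% of all genes were. The NR4A count is therefore not read as particular to these genes. Without set 3 the plasma log2 ratios of Jun and Jund were 0.14 and 0.19. Plasma cell-like nuclei were almost limited to sets 1 and 3 (49 and 96 of 149 nuclei), immunoglobulin genes took 7.70% of their UMIs, and Malat1, a nuclear long RNA, was 2.71-fold higher in them. With immunoglobulin UMIs left out of the denominator, a choice made after the data were seen, 7 members were lower and 14 higher.

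B cell-like and neutrophil-like nuclei were few (76 and 73), so levels alone are given. Fos was at 70.2 CPM (33.6 to 129) in B cell-like and 86.9 CPM (41.7 to 159.8) in neutrophil-like nuclei, below its HSC-like level of 319 CPM (305 to 332). The 6 AP-1 genes together were at 688 and 582 CPM, against 1662 CPM in HSC-like nuclei. In B cell-like nuclei, by genes chosen after their values were seen, Nfkb2 was at 140.3 CPM (85.7 to 217) and Relb at 84.2 CPM (43.5 to 147), against 24.9 CPM (21.3 to 28.9) and 13.4 CPM (10.8 to 16.5) in HSC-like nuclei. Zfp36l1 was at 196 CPM (131 to 284) in B cell-like nuclei and Nfkbia at 189 CPM (125 to 276). Nr4a2 had 0 counts there, which allows up to 21 CPM at 3 counts.

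Among HSC-like nuclei alone, members differed between barcode sets more than most genes did. For 26 members with at least 200 counts there, the highest set exceeded the lowest by a median of 1.84-fold, against 1.40-fold for 5700 genes with as many counts. A difference of at least 3-fold was seen for 8 of the 26, or 30.8%, against 1.91% of genes. The highest value lay in set 3 for 15 of the 26 (57.7%, against 13.6% of genes). Egr3, Nr4a1, Nr4a2, Klf2 and Fosb were among these, while Rel, Klf4, Jun and Fos were highest in set 4 and Ccl4 and Dusp1 in set 2. The sets are not tied to genotype or replicate, so genotype, mouse, handling and library cannot be told apart in this difference. Set 3 also had the highest Neat1 and Malat1, at 274 and 11931 CPM over all its nuclei, and the lowest Hspa1a and Hspa1b.

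**Figure D4:**
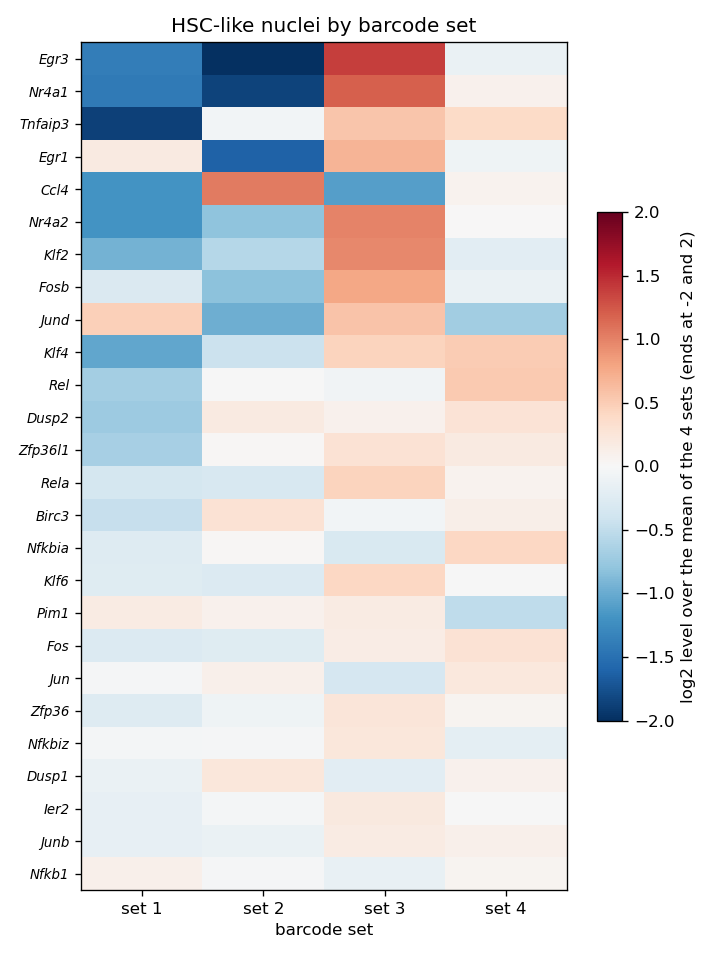
Log2 level of 26 members in each barcode set of the HSC-like nuclei over the mean of the 4 sets, members in rows by the width of their range. Red is above and blue below the mean, with colours ending at -2 and 2. Egr3 and Nr4a1 head the list with high values in set 3 and low ones in sets 1 and 2, and Nfkb1 at the foot is nearly level.

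To see how many members a single nucleus held, each nucleus was thinned to 2000 UMIs, which left out 121 of the 1624 HSC-like nuclei as too shallow. These 2000 UMIs included mitochondrially encoded ones. Such UMIs made up 13.9% in HSC-like, 18.2% in myeloid and 28.4% in erythroid-side nuclei before thinning. Fewer other UMIs were thus left in the latter 2 classes, and the part of this in the detection shares was not tested. Of 20 AP-1, EGR, IER, DUSP, NR4A, KLF and ZFP36 genes, HSC-like nuclei had a median of 4 detected, myeloid and lymphoid nuclei 2, megakaryocyte-side 3, erythroid-side 1, dendritic cell-like 4 and plasma cell-like nuclei 5. In sets 1 to 4 the median was 3, 3, 4 and 4 in HSC-like and 3, 5, 4 and 5 in dendritic cell-like nuclei. Plasma cell-like nuclei had 3 in set 1, the same as HSC-like nuclei, and 5 in set 3. At least 6 were detected in 24.2% of HSC-like, 4.52% of myeloid, 8.02% of lymphoid, 13.1% of megakaryocyte-side, 1.18% of erythroid-side, 41.6% of dendritic cell-like and 37.1% of plasma cell-like nuclei. None was detected in 4.46% of HSC-like and 34.7% of erythroid-side nuclei. Egr1 was found in 49.2% of thinned HSC-like nuclei (66.4% unthinned) and in 16.5% of myeloid nuclei (30.8%). Nr4a1 was found in 19.1% of thinned HSC-like nuclei (31% unthinned). In myeloid nuclei it was found in 3.69% (8.77% unthinned).

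Pairs of members were compared for detection in the same nucleus within the 1503 thinned HSC-like nuclei. Of 406 pairs among 29 members, 307 had an odds ratio above 1 within sets, 15 above 2 and 64 above 1 in all 4 sets, with a median of 1.18. These were 75.6%, 3.69% and 15.8% of the pairs, against 49.3%, 2.68% and 4.92% of 29089660 pairs among 7639 genes found in at least 40 of these nuclei, whose median was 0.995. The shares are a description, and the state of the nuclei was not tested. Fosb was found in 58.8% of nuclei with Fos and 38.9% of those without, an odds ratio of 2.22 that ranged from 1.79 to 2.40 over the sets. Dusp1 was found in 28.4% of nuclei with Fos and 15.0% of those without, an odds ratio of 2.19 (1.78 to 3.04 over sets). Egr3 was found in 9.59% of nuclei with Egr1 and 2.49% of those without, an odds ratio of 3.39 (2.26 to 7.29 over sets). These 3 pairs were chosen after their values were seen, nuclei of a set share a library, and no p-value is given.

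Over HSC-like nuclei and the 4 progenitor classes, each in 4 barcode sets, with log2 levels centred within each set, the genes outside the list whose level most resembled the sum of AP-1 genes were Fnbp1l (Pearson r = 0.94 over 20 points), Dclk2 (0.94), Nwd1 (0.94), Smad3 (0.93) and Dpy19l3 (0.93). For the sum of the NF-kB genes they were Clnk, Retreg1, Aff3, Cnot6l and Sox4, each at 0.97. These are the 5 highest of 6050 genes, the points share nuclei of 4 sets, and the values are a description. Within the list, Jund (0.96), Jun (0.95), Egr1 (0.95) and Dusp1 (0.93) followed the AP-1 sum, of which the first pair are parts, while Zfp36l1 (-0.36), Nfkbia (-0.33) and Tnfaip3 (-0.30) had the lowest values.

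Genes of the same pathways outside the list, from lists drawn up with earlier results known, were counted by the same rule. Of 30 other immediate early genes, 15 of 20 measured were lower and 1 higher in erythroid-side nuclei, where 25.7% and 20.0% of all genes were, with a median log2 ratio of -2.33. Among them Dusp4, a nuclear MAP kinase phosphatase gene, was 22.2-fold lower and Trib1 15.7-fold lower. In myeloid nuclei 8 of 21 were lower and 2 higher (17.2% and 8.47% of all genes), including Dusp5, 3.79-fold lower, and in megakaryocyte-side nuclei 9 of 20 were lower and 0 higher (14.1% and 5.75%). In lymphoid nuclei 1 of 20 was lower and 2 higher (11.3% and 5.66%). The 5 of 19 lower and 2 higher in dendritic cell-like nuclei were near the shares of all genes (25.1% and 10.4%), and the higher ones included Sgk1, a serum-induced kinase gene, 18.6-fold higher. Of the genes upstream of immediate early genes, 6 of 17 were lower and 1 higher in erythroid-side nuclei (25.7% and 20.0% of all genes), with Elk3, a partner of serum response factor, 8.76-fold lower.

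Of 27 NF-kB signalling genes, 8 of 22 measured were lower and 2 higher in erythroid-side nuclei, where 25.7% and 20.0% of all genes were, including Map3k14, the kinase of the non-canonical branch, 6.88-fold lower. In dendritic cell-like nuclei 1 of 22 was lower and 5 higher (25.1% and 10.4% of all genes), including Traf5, 5.14-fold, and Irak2, 4.85-fold higher. Il1r1, the receptor of interleukin-1, was 2.24-fold higher in lymphoid, 1.74-fold lower in myeloid and 4.87-fold lower in megakaryocyte-side nuclei. Of other NF-kB inhibitors and targets, 7 of 11 measured were lower and 0 higher in erythroid-side nuclei (25.7% and 20.0% of all genes), and 0 of 13 lower and 4 higher in dendritic cell-like nuclei (25.1% and 10.4%). In the latter Cd83, a marker of mature dendritic cells, was at 158 CPM against 0.589 CPM in HSC-like nuclei.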

How the data were processed

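Nuclei of sorted LSK marrow cells were profiled by 10x multiome sequencing. Per the submitters' processing notes, Cell Ranger ARC, Seurat and Signac and the build mm10 were used, without version numbers. Raw UMI counts by gene and nucleus make up the table the authors deposited, and all values were whole. Nothing ties nuclei to a sample, so a planned edgeR comparison of genotypes was not run.

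Levels were UMIs per 1000000 UMIs that are not mitochondrially encoded, with exact Poisson 95% intervals. Class ratios were Mantel-Haenszel rate ratios over barcode sets with Greenland-Robins 95% intervals, computed for all genes and tested on simulated data. Genes needed 50 counts, calls needed 1.5-fold and 1 direction in all sets with at least 8 nuclei. The gate of 4 markers and the use of sets 1 and 3 for plasma cell-like nuclei were chosen after seeing the data, and no doublet caller was run, nuclei meeting several lists being left out. Members, lists and markers were chosen with earlier results of these data known. All members were accounted for, most of those with at least 200 counts with levels by barcode set in 1 or more classes. The others have pooled levels, counts or ratios alone. Outside the list, the named genes were the 5 with at least 1000 counts that correlated best with the AP-1 and NF-kB sums (log2 of CPM plus 10), and per class the 2 of each pathway list with the largest ratio. Alternatives were the denominator, pooling, gate, depth, cycling nuclei, count minimum, fold and each set left out. Python 3.11.15, numpy 2.4.6, scipy 1.17.1 and pandas 2.3.3 were used.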

Additional observations from a re-analysis of the deposited data

How the results depend on the processing

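No paired analysis was possible because the nuclei of the table carry no sample or replicate. Of 270 alternative values for the counts of called members and their medians, 221 stayed within the limits set and 49 moved. A median of at least 1.5-fold in size changed sign in 0 of them, while 2 smaller medians did, in dendritic cell-like nuclei without a G2/M UMI and in plasma cell-like nuclei without set 3. Of 2424 for single members, 2118 stayed, 302 moved and 4 reversed. Medians are log2 ratios to HSC-like nuclei, and the causes of the moves were not tested. The number of members measured differs between settings, and shares of all genes called higher are not given for them. With all UMIs as denominator, higher members numbered 0 of 33 in megakaryocyte-side and 1 of 34 in erythroid-side nuclei. With sums pooled over barcode sets, higher members numbered 0 of 33 in megakaryocyte-side nuclei and the plasma cell-like median was 0.46. With 1 marker fewer, higher members numbered 1 of 34 in myeloid and 0 of 31 in megakaryocyte-side nuclei. Lower members numbered 4 of 28 in plasma cell-like nuclei, where 34.9% of all genes were lower. The medians were then -0.45 in megakaryocyte-side and 0.20 in plasma cell-like nuclei. With 1 marker more these medians were -0.69 and 0.61. With nuclei of several classes assigned, the medians were -0.65 in myeloid, -0.56 in megakaryocyte-side and 0.50 in plasma cell-like nuclei. With at least 2000 UMIs per nucleus, higher members numbered 0 of 33 in megakaryocyte-side nuclei.

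In nuclei without a UMI of a G2/M gene, lower members numbered 6 of 11 measured in myeloid nuclei, where 38.8% of all genes were lower. The median there was -0.60 against -0.32 over all genes (22 nuclei). Higher members numbered 2 of 18 in lymphoid nuclei (median -0.65, 46 nuclei). They numbered 5 of 18 in dendritic cell-like (median -0.018, 40 nuclei) and 5 of 18 in plasma cell-like nuclei (median 0.42, 51 nuclei). Too few nuclei were left for the megakaryocyte-side and erythroid-side classes. A low share of G2/M UMIs was an alternative added after seeing the data. With it, lower members numbered 12 of 30 in myeloid nuclei, where 14.1% of all genes were lower. Higher members numbered 0 of 28 in megakaryocyte-side and 1 of 20 in erythroid-side nuclei. Medians were -1.06, -1.61 and 0.11 in megakaryocyte-side, erythroid-side and plasma cell-like nuclei. With immunoglobulin UMIs left out, also added later, the plasma cell-like median was 0.43. With at least 200 counts, megakaryocyte-side nuclei had 9 of 26 members lower and 0 higher (median -0.59), where 12.6% of all genes were lower. Plasma cell-like nuclei had 8 of 20 higher (median 0.19). With no count minimum the plasma cell-like median was 0.19. At 2-fold, lower members numbered 13 of 35 in myeloid and 5 of 35 in lymphoid nuclei, where 10.2% and 6.53% of all genes were lower. Higher members numbered 1 of 35 in lymphoid, 0 of 33 in megakaryocyte-side and 1 of 34 in erythroid-side nuclei.

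Leaving out 1 barcode set in turn gave 18 to 23 lower and 0 higher members in myeloid nuclei (medians -0.87 to -0.72), 9 to 10 and 4 to 7 in lymphoid (-0.48 to -0.25), 13 to 16 and 0 to 1 in megakaryocyte-side (-0.94 to -0.66), 24 to 27 and 2 to 3 in erythroid-side (-2.03 to -1.87), 6 to 8 and 11 to 15 in dendritic cell-like (0.17 to 0.72) and 5 to 9 and 6 to 12 in plasma cell-like nuclei (-0.12 to 0.38). The plasma cell-like median was -0.12 without set 3, where 20 members were measured and 63.5% of all genes were lower. The reversed values were Ccl4 in plasma cell-like nuclei with 1 marker fewer (0.11), and, without a G2/M UMI, Egr3 in myeloid (0.66), Klf6 in myeloid (0.27) and Klf6 in dendritic cell-like nuclei (-0.15). Members with few counts, such as Cxcl2 with 43, are limited by depth.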
